A study of Mus musculus with 17 samples.

Results

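Some mRNAs of mouse testis were abundant and yet carried few ribosome footprints. Abundant here means at least 50 CPM, the usual depth-scaled count relative to the library total, in both wild-type mRNA libraries, which 3420 of 37991 listed transcripts reached. A transcript was taken as a member when its mean wild-type footprint CPM was at most 0.1 times its mean wild-type mRNA CPM. That left 138 transcripts, 4.04% of the abundant ones, and the other 3282 abundant transcripts served for comparison. The choice used the wild-type mRNA and footprint values themselves, so these are given as a description and support nothing.

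As background, ribosome profiling sequences the stretch of mRNA that a ribosome shields from nuclease, and few footprints for the amount of mRNA mean few ribosomes on the coding sequence. Developing male germ cells transcribe many mRNAs of late sperm formation before they are translated, because transcription stops as the nucleus condenses, and hold them in ribonucleoprotein particles until then. Maelstrom (MAEL) is a germ cell protein of the piRNA pathway that is found in nuage and the chromatoid body, granules rich in RNA, and piRNAs are small RNAs that guide PIWI proteins.

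The libraries came from testes of the 129SvJae mouse strain, either wild type or Mael-/-, and age is not given in the labels used here. Both genotypes had 2 mRNA libraries, 2 footprint libraries of 26 to 34 nt and 2 small RNA libraries of 15 to 50 nt, with the letters a and b. Wild-type testis also gave long RNA precipitated with an antibody to MAEL (2 libraries) or with rabbit IgG (1 library), and size-selected RNA precipitated with anti-MAEL, in a 50 to 150 nt and a 15 to 50 nt fraction with 1 library each. Totals ranged from 4130509 to 15372210 counts for mRNA and from 1668197 to 5009051 for footprints, and from 5747210 to 10863053 for the long precipitated RNA. The labels do not tie the a and b libraries to different animals, and the p-values then reflect spread among libraries that may be purely technical. No table used here pairs the transcript IDs with gene symbols, so members are named by Ensembl transcript ID with no gene role and no sequence. For the same reason Mael itself, cell type markers and the lists of stored spermatid mRNAs were not analysed here.

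In wild type the median footprint to mRNA ratio of the members was 0.0612 (interquartile range 0.0378 to 0.0803), against 0.722 for the other abundant transcripts. The members had a median of 182 CPM of mRNA and 9.95 CPM of footprints. By the size the authors list for the counted coding part, they had a median of 57.5 CPM of mRNA per 100 units of that size, and the other abundant transcripts 31.7. The ratio was at most 0.1 in both library letters for 110 of the 138. When transcripts were chosen from the a libraries alone, 113 of 164 (68.9%) had a ratio of at most 0.1 in the b libraries. When chosen from b alone, 115 of 130 (88.5%) did so in a. These are the wild-type values that the rule used, and the letters are not tied to different animals, so both shares are a description.

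**Figure D1:**
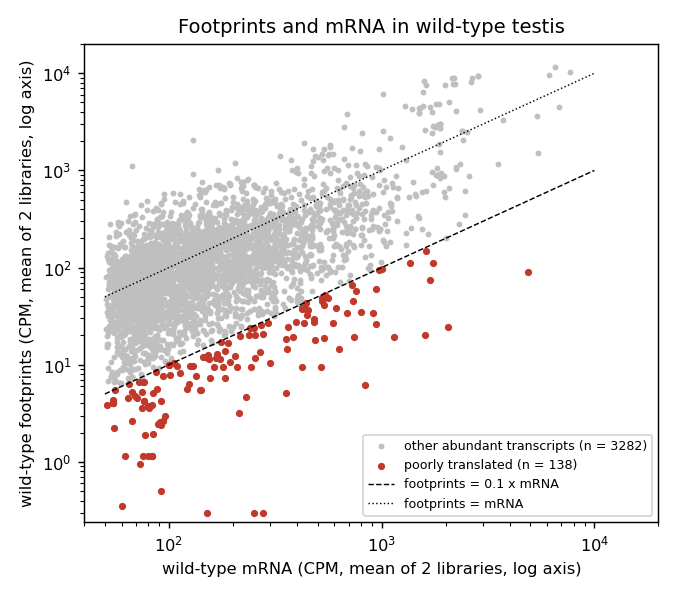
Mean wild-type footprint CPM (vertical, log axis) against mean wild-type mRNA CPM (horizontal, log axis) of the 3420 abundant transcripts, 1 point each. Red points are the 138 members, which lie on or below the dashed line at a ratio of 0.1 by construction, and the 3 members with 0 footprints are drawn at the lower edge.

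The member with the most wild-type mRNA counts was ENSMUST00000020383, with 4953 CPM in wild-type library a and 4754 CPM in b. Its footprints were 79.9 and 99.9 CPM, a ratio of 0.0185. In Mael-/- its mRNA stood at 1998 and 866 CPM and its footprints at 23.0 and 16.8 CPM. Both its mRNA and its footprints were thus lower in each Mael-/- library than in either wild-type library. ENSMUST00000022459 had 2237 and 1857 CPM of wild-type mRNA with 21.4 and 27.0 CPM of footprints. Its Mael-/- mRNA was lower in both libraries, at 960.1 and 415 CPM. Its Mael-/- footprints, at 21.9 and 18.6 CPM, overlapped those of wild type. Per 100 units of coding size ENSMUST00000022459 carried 711 CPM of wild-type mRNA, the most of these 6, and ENSMUST00000020383 carried 369 CPM.

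ENSMUST00000059383 was the member with the next-highest such density of these 6, at 615 CPM of mRNA per 100 units. Its mRNA was 1571 and 1625 CPM in wild type and 626 and 288 CPM in Mael-/-. Its footprints were 16.4 and 23.7 CPM in wild type and 9.14 and 5.99 CPM in Mael-/-. ENSMUST00000169803 followed the same order in both assays, with mRNA falling from 1766 and 1602 CPM to 602 and 245 CPM and footprints from 63.3 and 84.8 CPM to 18.3 and 4.196 CPM. ENSMUST00000050383 had 1684 and 1796 CPM of mRNA in wild type against 759 and 441 CPM in Mael-/-, with footprints of 104 and 119 CPM against 57.7 and 45.6 CPM. ENSMUST00000071869, the longest member, differed from these in its footprints. Its mRNA was 1749 and 1480 CPM in wild type and 895 and 659 CPM in Mael-/-, while its footprints, at 139 and 156 CPM in wild type and 145 and 171 CPM in Mael-/-, overlapped between the genotypes.

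**Figure D2:**
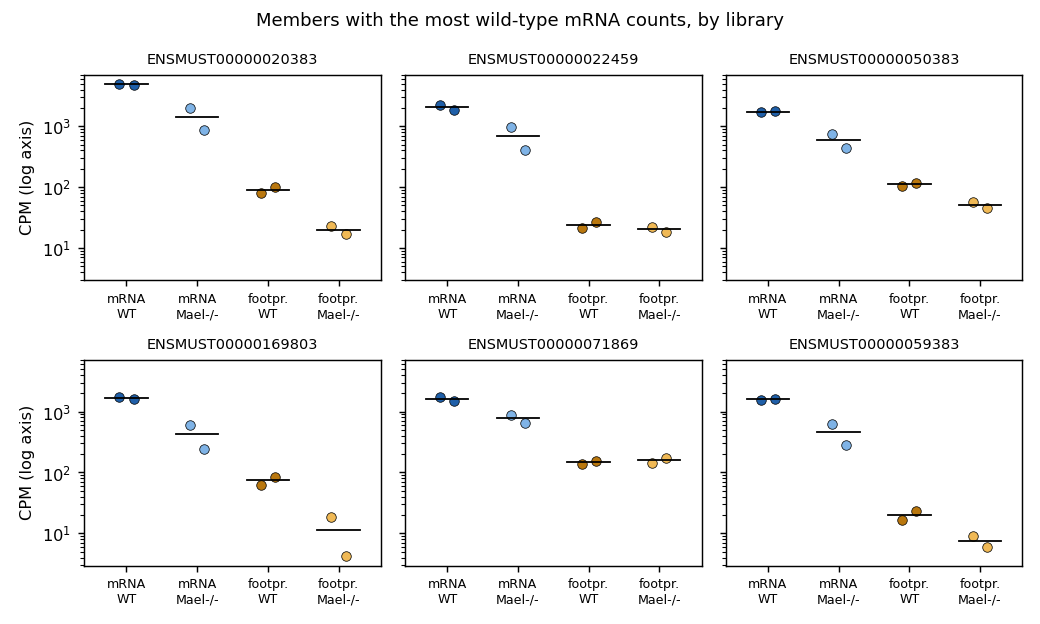
CPM (log axis) of mRNA and footprints in each library for the 6 members with the most wild-type mRNA counts, with wild type (WT) and Mael-/- side by side, library a on the left and b on the right of each group, and a line at the mean of 2 libraries. Mael-/- mRNA is below wild-type mRNA in all 6 panels, and footprints of ENSMUST00000022459 and ENSMUST00000071869 overlap between genotypes.

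At the other end, 3 members had 0 footprint counts in all 4 footprint libraries. ENSMUST00000079663 had 259 and 241 CPM of wild-type mRNA and 284 and 241 CPM in Mael-/-. With a floor of 3 counts in each library its footprints were at least 332-fold lower than its mRNA in wild type and at least 181-fold lower in Mael-/-. For ENSMUST00000079755 the bounds were at least 366-fold lower in wild type and at least 199-fold lower in Mael-/-, and for ENSMUST00000168292 at least 199-fold and 279-fold. Among the other abundant transcripts 0 of 3282 lacked footprints in all 4 libraries. The rule fixes this, because an abundant transcript without wild-type footprints is a member. The handling of reads that match several transcripts is not stated, and a count of 0 in short footprints is uncertain where a near-identical copy exists. ENSMUST00000114959 had the lowest wild-type ratio above 0, 0.00544, from 5 and 0 footprint counts.

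Around the threshold the members ran into their neighbours without a gap. The 3 just inside, ENSMUST00000037499, ENSMUST00000105733 and ENSMUST00000006377, had wild-type ratios of 0.0990, 0.0995 and 0.09997. The 3 just outside, ENSMUST00000113766, ENSMUST00000087442 and ENSMUST00000034239, had 0.1003, 0.1006 and 0.1018. Their Mael-/- ratios did not separate, at 0.129 to 0.199 for those inside and 0.173 to 0.297 for those outside. At the abundance threshold ENSMUST00000053168, with 50.4 CPM in its lower wild-type library, was a member, and ENSMUST00000172007, with 48.7 CPM, was not. The median transcript size was 2164 for the members and 2555 for the other abundant transcripts, and the median coding sizes were 397 and 456. Of the members, 7 fell into 3 groups with identical mRNA and footprint counts, so that 134 are distinct and the members of a group may share reads.

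The first question was whether the low ratio recurred in Mael-/- testis, in libraries that the rule did not use. By the rule's own limit of 0.1 it did for 88 members, and for 66 in both library letters. The median Mael-/- ratio of all 138 was 0.0804 (interquartile range 0.0353 to 0.126), against 0.631 for the other abundant transcripts, and ranged from 0 to 0.286. The ratio was at most 0.1 in 88 of the 138, where 3.30% of all abundant transcripts had so low a ratio, and it was at most 0.2 in 132. Among the other abundant transcripts 25 of 3282 were at most 0.1 in Mael-/-. Tested as footprints against mRNA within Mael-/-, 136 of the 138 members were lower and 0 were higher, where 17.5% of the 10416 transcripts tested were lower and 14.8% higher (edgeR quasi-likelihood, adjusted p under 0.05). Of the other abundant transcripts 28.3% were lower and 11.5% higher. This test asks whether footprints were below mRNA, not whether the ratio was at most 0.1. Its filter on low counts took both assays together, so members could enter on their mRNA alone. All 138 entered, where 116 passed the filter on footprints, and the members' calls are a description. The median log2 difference was -3.39 for the members, -0.36 for the other abundant transcripts and -0.10 for all transcripts tested. The 2 members that missed the threshold, ENSMUST00000027299 and ENSMUST00000051676, had log2 differences of -2.62 with SE 0.834 and -2.36 with SE 0.756 (adjusted p by edgeR of 0.0556 and 0.0567).

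The calls rested on having both Mael-/- footprint libraries. Without library a 8 members were called and without b 5, although the median log2 difference was -3.60 and -3.37 in those fits, and the counts of all transcripts called were 108 and 71 in place of 3367. Without Mael-/- mRNA library a 132 members were called, and without b 134. The largest called differences were those of ENSMUST00000168292 and ENSMUST00000079755, which had 0 footprints and for which the bounds above apply. Without the members at 0 footprints, a choice made after seeing the data, 133 were called and the median was -3.35.

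**Figure D3:**
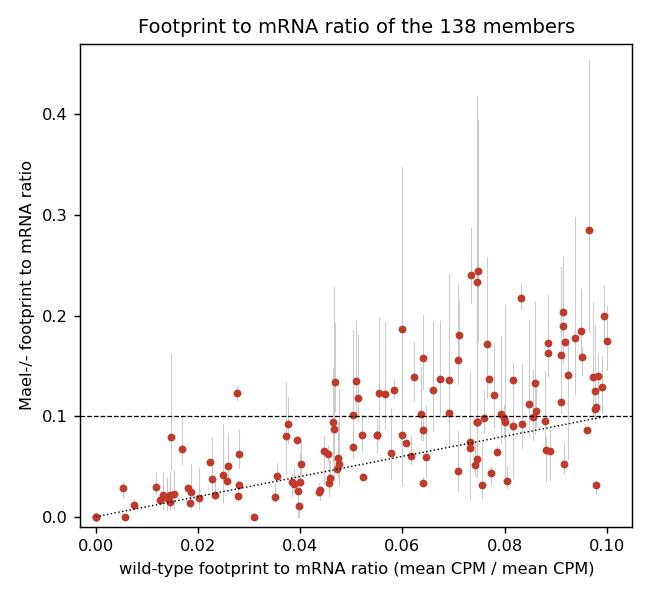
Footprint to mRNA ratio in Mael-/- (vertical) against wild type (horizontal) for the 138 members, from mean CPM, with a grey line joining the Mael-/- values of library a and library b. The dashed line is a ratio of 0.1, with 88 members on or below it, and the dotted line marks equal ratios, with 101 members above it.

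Within the members the Mael-/- ratio varied widely. The highest was that of ENSMUST00000102695, at 0.183 in library a and 0.454 in library b, from 8.77 and 13.2 CPM of footprints and 47.9 and 29.0 CPM of mRNA. ENSMUST00000147812 followed with 0.175 and 0.395, its footprints of 61.0 and 64.1 CPM lying on either side of the higher wild-type value of 62.0 CPM while its mRNA went from 667 and 850.5 CPM to 349 and 162 CPM. ENSMUST00000095998 and ENSMUST00000022461 had ratios of 0.240 and 0.233. These 4 had wild-type ratios between 0.0735 and 0.0965, in the upper part of the members' range. In library b all 4 were above library a, and mRNA was lower there. Besides the 3 members without footprints in any library, ENSMUST00000122181 and ENSMUST00000025635 had 0 footprints in both Mael-/- libraries, from 7 and 15 and from 2 and 1 counts in the wild-type libraries.

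The ratio was higher in Mael-/- than in wild type for 101 of the 138 members, and for 1049 of the 3282 other abundant transcripts. Because the rule took transcripts with a low wild-type ratio, nothing is read from this count. Both Mael-/- ratios were above both wild-type ratios in 58 members and below in 11 of 138, against 15.5% and 42.4% of the other abundant transcripts, and nothing is read from these shares either. As an interaction of assay and genotype, 0 members passed the test, as did 0.0% of the 11427 transcripts tested (edgeR, adjusted p no lower than 0.602). Before adjustment 40 members were higher and 0 lower at p under 0.05, among 424 higher and 491 lower over all transcripts, and DESeq2 called 12 members among 50 transcripts. The median log2 change in the ratio was 0.71 for the members and -0.19 over all transcripts tested. Without Mael-/- mRNA library a 33 members were called higher, among 178 transcripts in all.

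Applied to Mael-/- in place of wild type, the same rule took 50 of 3657 abundant transcripts, or 1.37%. Of these, 39 were members, which is 78.0% of that list and 28.3% of the 138. The remaining members left the list in different ways. In 73 the mRNA was still at least 50 CPM in both Mael-/- libraries, and 34 of these had a ratio above 0.1, while the other 65 were below 50 CPM in at least one library. The 11 transcripts that the Mael-/- list added had wild-type ratios of 0.0151 to 0.289 (median 0.125), and 4 of them were under 50 CPM in a wild-type library.

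The second question was the level of the members in Mael-/-. Most had less mRNA. The ratio of mean Mael-/- to mean wild-type mRNA CPM had a median of 0.345 (interquartile range 0.296 to 0.491) in the members and 0.943 in the other abundant transcripts. Both Mael-/- libraries were below both wild-type libraries in 130 of the 138 members, where 26.8% of all tested transcripts showed this, and above both in 5, where 52.5% were. In the other abundant transcripts these shares were 41.9% below and 31.9% above. By the test 121 members were lower and 1 was higher, against 17.7% lower and 15.2% higher among 11181 transcripts tested (edgeR quasi-likelihood, adjusted p under 0.05). Of the other abundant transcripts 30.0% were lower and 8.93% higher. The median log2 fold change was -1.82 for the members, -0.36 for the other abundant transcripts and 0.21 over all tested. The rule chose on wild-type mRNA, so these counts are a description. Fewer cells of a type and less RNA per cell cannot be told apart in whole testis.

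The lower level appeared in each range of wild-type mRNA. Among transcripts of 50 to 100 CPM the median ratio of Mael-/- to wild type was 0.352 in 43 members and 1.11 in 1244 others. From 100 to 200 CPM it was 0.389 and 0.982, from 200 to 500 CPM 0.393 and 0.753, and from 500 CPM on 0.330 in 30 members and 0.654 in 327 others. The members' ratio thus stayed within a narrow range, while that of the others was lower in the more abundant ranges.

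The Mael-/- libraries differed from each other. Relative to the wild-type mean the members' median was 0.462 in library a and 0.261 in library b, and b was below a in 123 of 138 members and 2036 of 3282 others. Every call lay close to the threshold, with a smallest adjusted p of 0.0330 over all transcripts (edgeR quasi-likelihood). Without wild-type library a, and likewise without b, 0 transcripts and 0 members were called, while the members' median log2 fold change was -1.78 in both fits. It was -2.43 without Mael-/- library a and -1.41 without b.

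**Figure D4:**
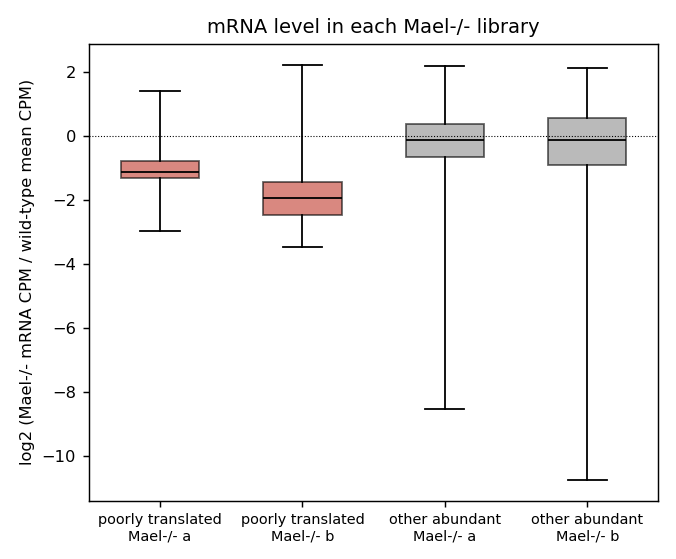
Log2 ratio of the mRNA CPM in each Mael-/- library to the wild-type mean CPM, for the 138 members and the 3282 other abundant transcripts; boxes span the quartiles with the median as a line and whiskers reach the lowest and highest transcript. The members' boxes lie below 0 in both libraries and lower in b than in a.

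The largest called falls were those of ENSMUST00000098119 and ENSMUST00000084677, whose mRNA and footprint counts were identical. Their mRNA was 78.8 and 74.7 CPM in wild type and 11.3 and 12.3 CPM in Mael-/-, a log2 change of -2.98 with SE 0.258 (edgeR, adjusted p = 0.0330). The groups did not overlap. The 1 member called higher was ENSMUST00000168292, which carried no footprints. Its mRNA was 166 and 135 CPM in wild type and 405 and 402 CPM in Mael-/-, a log2 change of 1.14 with SE 0.235 (edgeR, adjusted p = 0.0330). In CPM of library totals the Mael-/- mean was above wild type in 7 members, the 3 that lacked footprints among them. With the TMM scaling of the test 4 members had a log2 change above 0, and ENSMUST00000079663 and ENSMUST00000079755 turned to -0.21 and -0.22, so their direction depends on the scaling.

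In footprints 116 members passed the filter on low counts, and 51 of them were lower in Mael-/- and 4 higher, against 20.3% lower and 11.3% higher among 9783 transcripts tested (edgeR quasi-likelihood, adjusted p under 0.05). The share called lower was 44.0% in these members and 39.6% in the other abundant transcripts. All members had a median of 9.95 CPM of wild-type footprints and the others 104 CPM. A like change is harder to call at the lower level. Of the other abundant transcripts 10.3% were called higher. Members passed that filter only where some library held enough counts, so these are not all members. Both Mael-/- footprint libraries were below both of wild type in 81 of the 138 (58.7%), where 29.0% of all tested transcripts were, and above both in 18, where 42.3% were. In the other abundant transcripts these shares were 49.8% below and 29.2% above. The median log2 change of the 116 was -1.03, against -0.26 in the other abundant transcripts and 0.06 over all tested. In mRNA the median of all 138 was -1.82. The values are again a description, since the rule chose on low wild-type footprints. ENSMUST00000030826 fell from 35.3 and 51.3 CPM of footprints to 6.58 and 1.798 CPM, a log2 change of -3.31 with SE 0.390 (edgeR, adjusted p = 7.65e-05). ENSMUST00000100332 fell from 12.6 and 15.2 CPM to 1.46 and 1.798 CPM. In both, the Mael-/- libraries lay below the wild-type libraries.

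The third question was whether anti-MAEL carried these mRNAs beyond the IgG background. For most members it did not do so by the test, and both antibodies gave them more signal per length than they gave other abundant transcripts. Per kilobase of transcript the members had a median of 44.3 CPM under both anti-MAEL and IgG, and the other abundant transcripts 11.3 and 14.5 CPM. The anti-MAEL value is a mean of libraries that differed. Without division by length the members' medians were 72.5 CPM in anti-MAEL library a, 129 CPM in b and 110 CPM with IgG. With anti-MAEL 124 of the 138 members were above the median of the others per kilobase, and with IgG 121 were. In transcripts of 50 to 100 CPM of wild-type mRNA the medians per kilobase were 39.7 CPM (anti-MAEL) and 30.7 CPM (IgG) in members, against 5.84 and 7.43 CPM in others. From 100 to 200 CPM they were 25.7 and 32.3 CPM against 10.5 and 13.1 CPM, and from 200 to 500 CPM 53.5 and 48.1 CPM against 20.7 and 27.7 CPM. From 500 CPM on they were 109 and 142 CPM against 67.1 and 89.0 CPM. The higher level of the members was thus seen with IgG as well as with anti-MAEL in all 4 ranges.

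Between the antibodies, 6 of the 138 members were higher with anti-MAEL and 0 were lower, where 1.28% of 16066 features tested were higher and 0.0% lower (edgeR, adjusted p under 0.05). Higher calls made up 0.489% of the other abundant transcripts tested and lower calls 0.0%. Before adjustment 11 members were higher and 0 lower at p under 0.05, among 1086 features higher and 139 lower, and DESeq2 gave 10 members higher among 350 features called. The median log2 fold change of the members was 0.00, and it was 0.02 over all features and -0.09 in the other abundant transcripts. Both anti-MAEL libraries were above IgG in 16 members (11.6%), where 16.3% of the transcripts tested were, and below it in 75 (54.3%), where 50.1% were. These shares were 5.06% above and 66.3% below in the other abundant transcripts. With 1 IgG library its spread was not measured and is assumed in the test to be that of the anti-MAEL libraries.

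**Figure D5:**
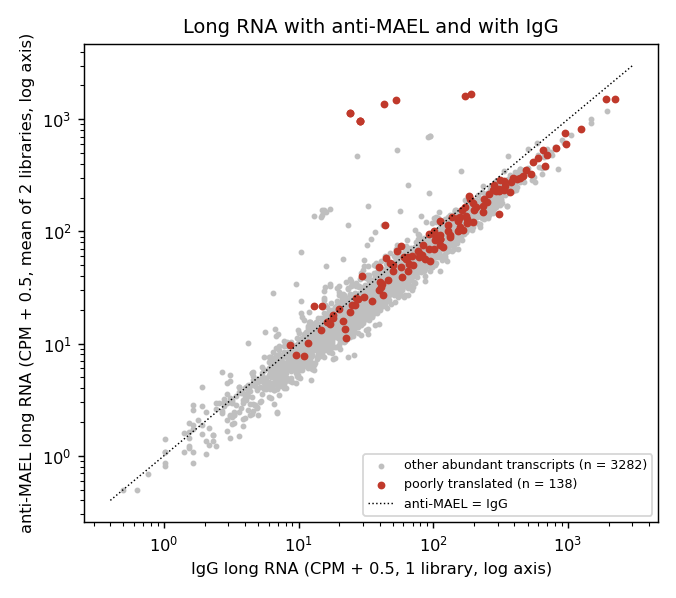
Long RNA with anti-MAEL (vertical, mean of 2 libraries) against IgG (horizontal, 1 library), in CPM plus 0.5 on log axes, for the 138 members in red and the 3282 other abundant transcripts in grey. Most members lie along the line of equal signal, and 9 lie far above it with anti-MAEL at 960 CPM or more, where a group of 3 and a group of 2 with identical counts are each drawn as a single point.

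The members with the most IgG signal were among those with the most anti-MAEL signal. ENSMUST00000020383 had 1090 and 1928 CPM with anti-MAEL, and IgG gave 2244 CPM. ENSMUST00000059383 had 1186 and 1867 CPM with anti-MAEL, and IgG gave 1901 CPM. In both, IgG was above each anti-MAEL library. The highest anti-MAEL means were those of ENSMUST00000062637, with 1935 and 1450 CPM against 189 CPM with IgG, and ENSMUST00000169045, with 1866 and 1380 CPM against 169.9 CPM. Over IgG the log2 changes of this pair, 3.58 with SE 1.06 and 3.68 with SE 1.05, missed the threshold (adjusted p by edgeR of 0.210 and 0.186). Each anti-MAEL library was above IgG for both.

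A small group of members stood apart in several assays. It was noticed after the values were seen, so its values and calls are a description only. In 9 members the anti-MAEL mean was at least 4 times IgG, as in 17 of the 3282 other abundant transcripts. These 9 were also the 9 members with at least 100 CPM of small RNA of 15 to 50 nt in wild type, whereas among the other abundant transcripts 8 met both conditions, 47.1% of the 17 by anti-MAEL and 42.1% of the 19 by small RNA. The 9 had 960 to 1693 CPM with anti-MAEL, 23.5 to 189 CPM with IgG and 2206 to 7075 CPM in the 15 to 50 nt anti-MAEL library, which has no IgG of its size. The other 129 members had a median of 1.11 CPM of small RNA in wild type and 0.504 CPM in that library. With identical counts taken once, the 9 are 6 distinct transcripts.

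Of these 9, 7 were alike in mRNA, but some of the 7 had identical counts and may share reads. They had 50.9 to 91.5 CPM in wild-type library a and 58.5 to 96.8 CPM in b, and 6.96 to 18.8 CPM and 12.3 to 22.5 CPM in the Mael-/- libraries. All 7 were called lower in mRNA, with log2 fold changes from -2.98 to -2.47 (edgeR quasi-likelihood, adjusted p under 0.05). So were 87.7% of all members and 17.7% of all transcripts tested, so the call does not set the 7 apart from the members. Of the 6 members called higher with anti-MAEL than with IgG, 5 were among these 7. Those 5 all belonged to groups with identical counts and are not separate observations. ENSMUST00000098119 and ENSMUST00000084677 had 1355 and 918 CPM with anti-MAEL, where IgG gave 23.5 CPM, a log2 change of 6.03 with SE 1.09 (edgeR, adjusted p = 0.0312). ENSMUST00000107991, ENSMUST00000107998 and ENSMUST00000108024, which shared identical counts, had 1168 and 752 CPM with anti-MAEL, where IgG gave 27.9 CPM (log2 change 5.54; edgeR, adjusted p = 0.0348). The sixth called member, ENSMUST00000109123, was outside the 9, at 105.3 and 121 CPM under anti-MAEL and 42.9 CPM under IgG (log2 change 1.75; edgeR, adjusted p = 0.0490). Its mean wild-type small RNA, 84.4 CPM, was the highest of the other 129 members. ENSMUST00000107991, ENSMUST00000107998, ENSMUST00000108024 and ENSMUST00000109123 were named after their values were seen.

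The remaining pair of the 9, ENSMUST00000062637 and ENSMUST00000169045, went the other way in Mael-/-. For ENSMUST00000062637 mRNA was 171 and 337 CPM in wild type and 452 and 1188 CPM in Mael-/-, a log2 change of 1.41 with SE 0.534, short of the threshold (edgeR, adjusted p = 0.0806). Its footprints rose from 17.6 and 22.8 CPM to 80.8 and 86.9 CPM, a log2 change of 1.96 with SE 0.186 (edgeR, adjusted p = 1.57e-05). Its small RNA went from 358 and 365 CPM to 3376 and 3531 CPM, a log2 change of 2.07 with SE 0.547 (edgeR, adjusted p = 0.0460). In all 3 assays both Mael-/- libraries lay above both wild-type libraries. ENSMUST00000169045 had nearly the same values throughout, with small RNA of 352 and 362 CPM in wild type and 3347 and 3485 CPM in Mael-/-, so reads may be shared between the pair. The call in small RNA was lost for both with size factors in place of TMM scaling, with no filter on low counts, without wild-type library a and without wild-type library b.

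In small RNA over all members, 103 passed the filter. The pair above made up the 2 called higher, while 8 were called lower, against 3.82% higher and 3.49% lower among 9906 features tested (edgeR quasi-likelihood, adjusted p under 0.05). Among the other abundant transcripts tested 1.24% were higher and 2.33% lower. The median wild-type small RNA of all 138 members was only 1.37 CPM. The median log2 fold change of the 103 was -0.58, with 0.08 in the other abundant transcripts and 0.15 over all features. With library totals in place of TMM scaling the members' median was 0.66, with 16 members higher and 0 lower. That scaling moved the median of all features by 1.26. The direction for the members in small RNA therefore depends on the scaling. ENSMUST00000057135, the called member with the largest fall at 5 CPM or more and no overlap, had 37.9 and 43.8 CPM in wild type and 24.5 and 32.9 CPM in Mael-/-. Its log2 change was -1.73 with SE 0.417 (edgeR, adjusted p = 0.0361), and -0.51 with library totals, where it was not called.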

How the data were processed

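The authors deposited raw counts of reads per transcript, 1 table per library, and a size for each transcript. Per the submitters' processing notes, CASAVA 1.8, Bowtie2 2.0.6, TopHat2 2.0.7 and the build mm9 were used, with no role given. Whether strand was used and how reads matching several transcripts were counted are not given in the sources used here. The mRNA and footprint tables hold counts above 0 only in the 18286 transcripts with a coding size, whose unit is not stated and which never exceeds 0.332 of the transcript size. The immunoprecipitate and small RNA tables count whole transcripts and 465 entries at 214 piRNA loci, of which the entry with the most counts was kept per locus.

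CPM are relative to library totals. Ratios use mean CPM with no further scaling. Comparisons were tested over each whole table with edgeR 4.0.16 in R 4.3.3 (quasi-likelihood, TMM scaling, filterByExpr, Benjamini-Hochberg, adjusted p of 0.05, no replicate block), and DESeq2 1.42.0 was an alternative. The contrast of anti-MAEL and IgG used the 3 long-RNA libraries alone. Logarithms of anti-MAEL over IgG used a pseudocount of 0.5 CPM, and the floor for 0 counts is 3 counts in each library, which covers counting error only. Figures and summaries used Python 3.11.15 with pandas 2.3.3, numpy 2.4.6 and matplotlib 3.10.9. The fits were also run on simulated counts, which checks the code and does not bear on the calls made here.

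Libraries of a group differed by 3.30 to 50.9 in chi-square per degree of freedom, so none was counted as a duplicate. Named transcripts are the 6 members with the most wild-type mRNA, the 4 with the lowest wild-type ratio, the 3 on each side of the ratio threshold, the 4 with the highest and the 4 with the lowest Mael-/- ratio, the 4 with the most anti-MAEL CPM, and up to 2 per direction among called members averaging 5 CPM or more whose groups did not overlap. The members, rules and lists were chosen with earlier results of these data known. Of the transcript IDs, 0 matched the gene tables used here. The comparisons of Mael-/- with wild type share the wild-type libraries that chose the members.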

Additional observations from a re-analysis of the deposited data

How the results depend on the processing

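The number of members, 138, became 54 at a ratio of at most 0.05, 390 at 0.2 and 91 at 100 CPM, and it was 172 at 20 CPM, 126 with TMM-scaled CPM and 134 with identical counts taken once. Chosen from the libraries of one letter, it was 130 to 164.

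In mRNA the members called higher, 1, were 3 with library totals, 3 with no filter and 3 with the replicate block, and 0 to 3 when a library was left out. Members called lower were then 0 to 131 and all transcripts called 0 to 4077, against 3675, with 0 without either wild-type library. The members' median was -2.43 to -1.41. The share of higher calls over all transcripts was 46.1% with TMM, 27.4% with size factors and 69.1% with library totals, which moved the median of all transcripts by 0.28. In footprints DESeq2 called 2 members higher and 1819 transcripts in all, against 4 and 3090, leaving out a library gave 2 to 4 higher, and a median of -1.24 to -0.77. The share of higher calls was 35.7%, and 49.8% with library totals.

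For the change in the ratio, no filter gave 1 member and 3 transcripts, DESeq2 12 and 50, and leaving out a library 0 to 33 members and 0 to 178 transcripts. For footprints against mRNA in Mael-/-, members called lower were 5 to 134 without a library, and transcripts called 71 to 5042. With library totals 27.5% of called transcripts were higher, against 45.8%.

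For anti-MAEL over IgG, 206 features were called with TMM, 326 with size factors, 101 with library totals, 671 with no filter, 350 with DESeq2 and 108 in a fit of 5 libraries with wild-type mRNA. Members higher were 10 with no filter, with DESeq2 and in the fit of 5. That fit gave 63 and 90 transcripts without one anti-MAEL library, an alternative chosen after seeing the data. The fit of 3 has no residual degrees of freedom without a library and gave a value only. 

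In small RNA the members called higher were 0 with size factors, 16 with library totals and 0 with no filter, and those lower 0 with library totals, where the median was 0.66. Features called were 2588 with library totals and 481 with no filter, against 724. Leaving out a library gave 0 to 10 members higher, 0 to 24 lower and 78 to 1890 features.

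The a and b letters do not establish a pairing, with 2 pairs and correlations of same-letter deviations of 0.190 in mRNA, -0.169 in footprints and 0.336 in small RNA. The replicate block gave 127 members lower in mRNA, 37 in footprints, 138 for footprints against mRNA in Mael-/- and 0 for the change in the ratio. In small RNA it gave 7 higher, 32 lower and 4072 features. The crossed pairing of footprints gave 60 members lower and 3660 transcripts called, a choice made after seeing the data. The members' median in small RNA changed sign with library totals, from -0.58 to 0.66, and the majority of calls over all transcripts in mRNA turned from lower to higher. The members' median for anti-MAEL over IgG, 0.00, was -0.31 with library totals. The cause of these shifts was not tested. Precision is limited by 2 libraries a group, 1 IgG library and low footprint counts.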
